A study of Homo sapiens with 4 samples.

Results

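The complement genes described here are 8 genes out of the 16811 genes of the deposited table, chosen by symbol. *CD46*, *CD55* and *CD59* encode membrane regulators of complement, and *C3*, *CFB*, *C1R*, *C1S* and *SERPING1* encode secreted proteins of the cascade. RNA was sequenced from 2 biological replicates of wild-type MCF12A cells and 2 of MCF12A cells labelled as knocked out for *C1orf132*, the host gene of miR-29b-2 and miR-29c. MCF12A is an immortal, non-tumorigenic line of human breast epithelium, and all cultures grew in the same medium with horse serum, EGF, hydrocortisone, cholera toxin and insulin. The edited cells had lost the p2 promoter region of *C1orf132* after transfection with Cas9 and a pair of guide RNAs, followed by sorting of single cells into colonies. Which colony or colonies were sequenced is not given in the sources used here. As *C1orf132* was not analysed here, the groups could be taken from the labels only. Pairs of values below are in the order replicate 1, replicate 2.

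Complement is a cascade of plasma proteins that coats foreign surfaces and opens pores in membranes. In the classical pathway the proteases C1r and C1s are activated in the C1 complex, in the alternative pathway factor B joins C3b to form a protease, and both pathways meet at the cleavage of C3. The liver makes most circulating complement, and epithelia, the mammary epithelium among them, also make C3 and factor B and raise them in response to inflammatory cytokines. Cells shield themselves with CD46, a cofactor for the cleavage of C3b, CD55, which takes apart the C3-cleaving enzymes, and CD59, which blocks the final pore. SERPING1 is the C1 inhibitor, a serpin that inactivates C1r and C1s.

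The deposited values are a normalized expression signal. Its normalization is not given in the sources used here, and the steps of low genes point to scaling by transcript length, which held for 29 of the 45 such genes with 1 transcript. Levels are compared between genes below on that reading. They summed to between 1444640 and 1655440 per library. For 21.0% of low genes the values were small whole multiples of a step in all 4 libraries. The inverse of the step was 1.12, 0.930 and 1.00 times that of edited replicate 1 in edited replicate 2 and wild-type replicates 1 and 2. These ratios were read from 73, 63 and 49 of 2268 low genes. They reflect depth together with the unstated normalization, and are not totals of reads. For a 1 kb transcript the value of 1 read came to 0.102 to 0.123. All 8 genes were among the 9590 genes whose mean value reached 10 and were tested with limma on log2(value + 1), with Benjamini-Hochberg adjustment over all 9590 genes and a threshold of adjusted p under 0.05. The log2 fold changes below are edited minus wild-type on that scale. The design text calls the 2 samples of a group biological replicates but does not say whether they came from separate cultures or colonies, and p-values measure the spread between these samples only. With 2 per group, no exact permutation test (two-sided) can reach a p under 0.333. The tests of single genes therefore use the variance that limma pools over genes.

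All 10 mammary epithelial marker genes looked for were in the table, with *KRT5* at 3056 to 11914 in every library, and their summed value was 5036 and 6144 in the edited pair against 11817 and 20835 in the wild-type pair. *CDH1* was at 3.89 and 1.54 in the edited pair against 150 and 123 in the wild-type pair. Of the 10, limma called 4 lower in edited cells (*CDH1*, *EPCAM*, *KRT17* and *TP63*) and 1 higher, *KRT8*. Of all tested genes 4.2% were called lower and 2.89% higher. *CDH1* and *EPCAM* reached the mean of 10 only through the wild-type group, where they are high. Among all genes with no filter, 2 of the 10 were called lower and 1 higher. *KRT8* was at 378 and 365 in the edited pair against 194 and 175 in the wild-type pair (log2 fold change 1.01, limma adjusted p = 0.0449). Of the other cell types, 0 of 5 hepatocyte and 0 of 4 endothelial markers were in the table. Of 6 blood cell markers *CD14* and *CD68* were there, and of 8 fibroblast markers *COL1A1* and *DCN*. *DCN*, which encodes a matrix proteoglycan, was at 15.1 and 105 in the edited pair against 7.42 and 1.09 in the wild-type pair. It was thus highest in edited replicate 2, and its log2 fold change was 3.30 (limma adjusted p = 0.0974). *COL1A1*, a collagen chain, went the other way, at 3.19 and 5.58 against 15.6 and 28.1 (log2 fold change -2.06, limma adjusted p = 0.0420). Each reached the mean of 10 only through the group where it was high, *DCN* the edited and *COL1A1* the wild-type group. The summed value of both fibroblast markers was 18.3 and 111 in the edited pair against 23.0 and 29.2 in the wild-type pair, and that of the blood cell markers 41.7 to 58.4 in the 4 libraries. The part of these markers in the results below was not tested. In bulk RNA, fewer cells that express a gene cannot be told apart from less RNA per cell.

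All 5 secreted components and the membrane regulator *CD46* had negative log2 fold changes, as did 4151 of the 9590 tested genes, whereas *CD55* and *CD59* had positive ones. Of the 5 secreted components, 4 were much lower in edited replicate 1 than in edited replicate 2. Of the 8 genes, 1 passed the threshold, *SERPING1*, which was lower in edited cells. *SERPING1* reached the mean needed for testing only through the wild-type group, where it is high, so nothing is read from this count. Of all tested genes 7.09% passed, with 4.2% lower and 2.89% higher in edited cells. At an adjusted p under 0.001, limma called 0 of the 8 genes and 0.0104% of all tested genes. An unadjusted p under 0.05 (limma) was found for 3 of the 8, beside 3095 of all 9590 tested genes. Both edited values lay below both wild-type values for 5 of the 8 genes, as for 26.9% of all tested genes, and above them for 1, as for 38.3%. The median log2 fold change was -1.87 over the 5 secreted components and 0.41 over the 3 membrane regulators, beside 0.09 over all tested genes.

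**Figure D1:**
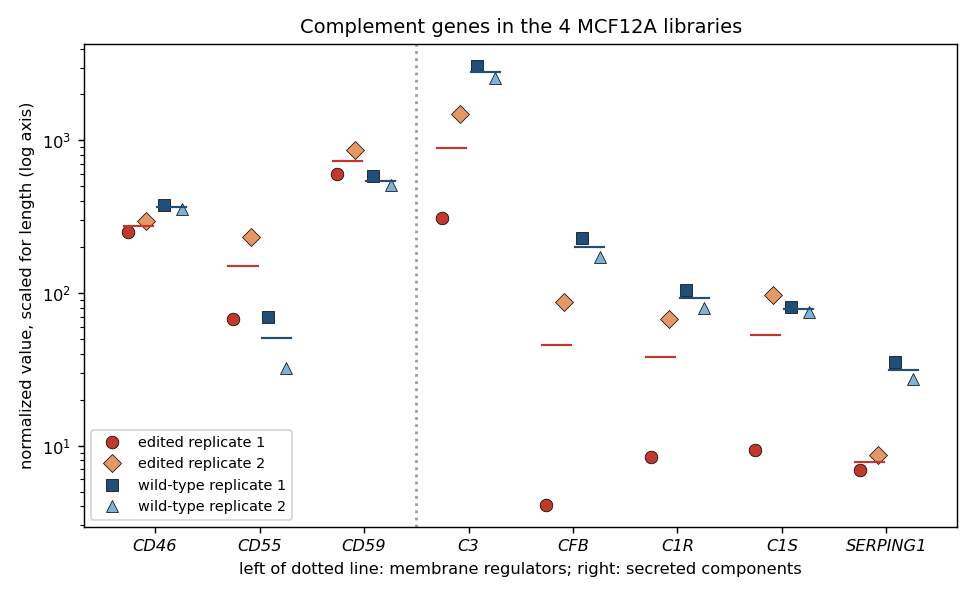
Normalized value of each gene in each library on a log axis, with membrane regulators left and secreted components right of the dotted line. Circles and diamonds are edited replicates 1 and 2, squares and triangles wild-type replicates 1 and 2, and short lines the mean of each group (n = 2). *CFB*, *C1R* and *C1S* lie under 10 in edited replicate 1 alone, while *SERPING1* lies under 10 in both edited libraries.

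*SERPING1* (ENSG00000149131, plus strand of chromosome 11, bases 57364860 to 57386644 of GRCh37), the gene of the C1 inhibitor, was at 6.94 and 8.71 in the edited pair against 35.5 and 27.3 in the wild-type pair. Both edited libraries were far below both wild-type libraries, and the replicates of each group were close. Wild-type cells averaged 31.4 ± 5.83 and edited cells 7.83 ± 1.25 (SD, n = 2 each), a ratio of 0.249. On the log2 scale this was a difference of -1.87 with a standard error of 0.23 (limma, adjusted p = 0.0187). The gene reached the mean of 10 only through the wild-type group. Among all genes with no filter its adjusted p was 0.0273 (limma). About 111 and 157 reads were estimated for it in the edited libraries. The call was lost without wild-type replicate 1 (adjusted p = 0.0859) or wild-type replicate 2 (adjusted p = 0.101), where limma called 47 and 4 genes in all. The fold change then stayed at -1.69 and -2.06.

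*C3* (ENSG00000125730, chromosome 19, 6677715 to 6730573 on the minus strand), the protein on which all pathways converge, was the most highly expressed of the 8 genes in wild-type cells, at 3077 and 2547 in replicates 1 and 2. This placed it in the top 0.577% and 0.571% of all genes of these libraries. In edited replicates 1 and 2 it was at 308 and 1479, in the top 4.56% and 0.987%. Both edited libraries were below both wild-type libraries, but they differed from each other by a factor of 4.80, against 1.21 between the wild-type libraries. Wild-type cells averaged 2812 ± 375 and edited cells 894 ± 828 (SD, n = 2 each). The log2 fold change of -2.05 (standard error 0.71, 95% confidence interval -3.80 to -0.29, adjusted p = 0.116 from limma) did not pass the threshold. Its annotated span overlaps that of *GPR108*.

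*CFB* (ENSG00000243649, chromosome 6, 31913427 to 31919863 on the plus strand), which encodes the protease subunit of the alternative pathway, had the widest range of the 8 genes. It was at 4.09 and 87.6 in the edited pair against 228 and 172 in the wild-type pair. Edited replicate 1 was thus at about 89 estimated reads, against 2132 in edited replicate 2. Its log2 fold change, -3.23 with a standard error of 1.25, had a 95% confidence interval of -6.33 to -0.13 (limma, adjusted p = 0.145). In the annotation the gene shares its span with a readthrough transcript that starts in *C2*, so their reads cannot be fully separated.

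*C1R* and *C1S* encode the paired proteases of the C1 complex and lie next to each other on chromosome 12, *C1S* (ENSG00000182326) from 7096351 to 7178336 on the plus strand and *C1R* (ENSG00000159403) from 7187513 to 7245203 on the minus strand of GRCh37. *C1R* was at 8.48 and 67.2 in the edited pair against 105 and 79.8 in the wild-type pair. *C1S* was at 9.40 and 97.2 in the edited pair against 80.7 and 75.3 in the wild-type pair. Edited replicate 1 was therefore low for both genes, whereas edited replicate 2 was near the wild-type level of *C1R* and above that of *C1S*. Within a library the ratio of *C1R* to *C1S* stayed between 0.692 and 1.31 although *C1S* differed by a factor of 10.3 between the edited replicates.

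For *C1R* the log2 fold change was -1.87 with a standard error of 0.87 (limma, adjusted p = 0.201). For *C1S* it was -1.30 with a standard error of 0.98 (limma, adjusted p = 0.393). Neither difference was larger than the spread between the edited replicates. The direction for *C1S* rested on edited replicate 1, since without it the log2 fold change was 0.31. *C1R* shares 3021 bases with the neighbouring *C1RL* on the same strand in the GRCh37 annotation, and *C1RL* was at 22.3 and 44.2 in the edited pair against 52.4 and 45.6 in the wild-type pair.

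The difference between the edited replicates was large for 4 of the 5 secreted components. *CFB*, *C1S*, *C1R* and *C3* were higher in edited replicate 2 than in edited replicate 1 by 4.12, 3.24, 2.85 and 2.26 on the log2(value + 1) scale. Over all tested genes, 0.876% were higher in edited replicate 2 by more than 2 on this scale and 0.198% were lower by more than 2. A difference between edited replicates at least as large as that of *CFB* was found for 0.188% of the tested genes, and for *C3*, the least of the 4, for 0.772%. Between the wild-type replicates the same 4 genes differed by at most 0.40 in size, and the median size over all tested genes was 0.23 between edited and 0.24 between wild-type replicates. *SERPING1* was higher in edited replicate 2 by 0.29 and so did not share a difference of this size. The membrane regulators *CD55*, *CD59* and *CD46* were also higher in edited replicate 2, by 1.78, 0.52 and 0.26. *CD55* differed between the wild-type replicates as well, by -1.09 (replicate 2 less replicate 1). All 8 genes were thus higher in edited replicate 2 than in edited replicate 1, as were 46.6% of all tested genes.

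**Figure D2:**
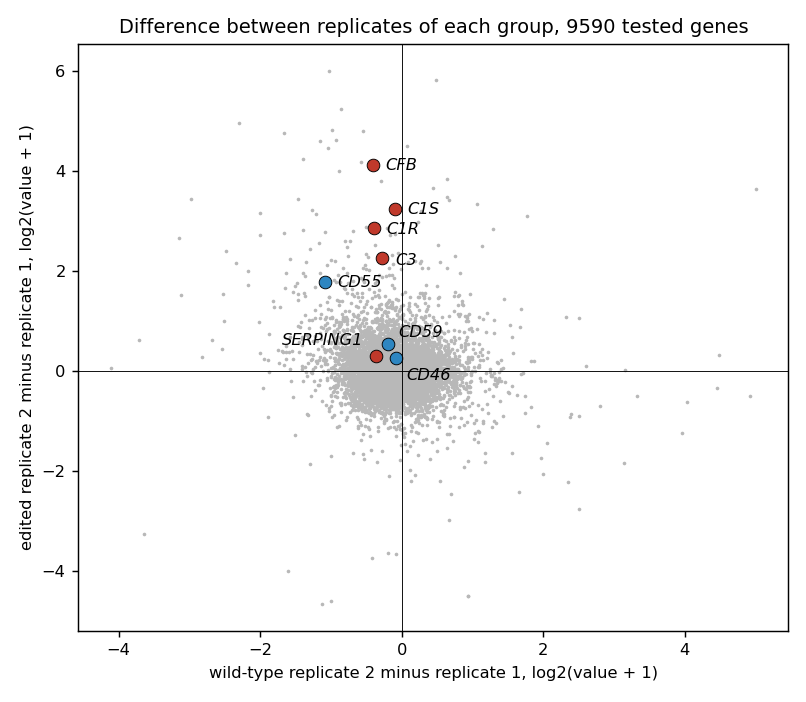
Difference between replicates 2 and 1 of the edited cells (vertical axis) against that of the wild-type cells (horizontal axis), both on the log2(value + 1) scale. Grey points are the 9590 tested genes, red points the secreted components and blue points the membrane regulators. *CFB*, *C1S*, *C1R* and *C3* lie between 2.26 and 4.12 on the vertical axis and between -0.40 and -0.10 on the horizontal axis.

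Considered singly, each edited library gave a different count. All 5 secreted components were lower in edited replicate 1 than the wild-type mean by more than 1 on the log2 scale, as were 8.88% of all tested genes. In edited replicate 2 this held for 2 of the 5, *CFB* at -1.17 and *SERPING1* at -1.73, beside 5.41% of all tested genes. Without edited replicate 2, limma called all of *C3* (-3.18, adjusted p = 0.00153), *CFB* (-5.29, adjusted p = 6.27e-05), *C1R* (-3.29, adjusted p = 0.000432) and *C1S* (-2.92, adjusted p = 0.000452) lower, among 1431 genes called in all. These fits assume that the lone edited library varies like the wild-type pair. Without edited replicate 1, 0 of these 4 genes were called, with *C3* at -0.92 (adjusted p = 0.217) and *CFB* at -1.17 (adjusted p = 0.0853).

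The proximal promoters of *CFB*, *C1R* and *CD55* are shown, which were picked after their values were seen. Each of these genes was higher in edited replicate 2 than in edited replicate 1, by 4.12, 2.85 and 1.78 on the log2(value + 1) scale. The promoter windows span 250 bases before to 50 bases after the annotated start in RefSeq on GRCh38.p14, and 5 of the 8 members had an entry. Capitals mark matches on either strand. The patterns were a degenerate one of 10 letters named for NF-kB, the STAT element TTCNNNGAA (GAS), the IRF core GAAANNGAA and the C/EBP element TTGCNNAA. The letters of the NF-kB pattern are not given here. It is a loose pattern, and the stretches it marks need not fit the strict NF-kB consensus. *CFB* lies at chr6:31945845-31946144 on the plus strand, *C1R* at chr12:7092396-7092695 on the minus strand (the first of 2 entries) and *CD55* at chr1:207321428-207321727 on the plus strand.
CFB: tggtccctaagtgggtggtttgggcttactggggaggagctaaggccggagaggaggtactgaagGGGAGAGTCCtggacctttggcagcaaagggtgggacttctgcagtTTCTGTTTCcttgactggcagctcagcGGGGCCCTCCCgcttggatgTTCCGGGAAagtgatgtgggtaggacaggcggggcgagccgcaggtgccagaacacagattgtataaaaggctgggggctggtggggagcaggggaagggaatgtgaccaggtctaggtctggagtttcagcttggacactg
C1R: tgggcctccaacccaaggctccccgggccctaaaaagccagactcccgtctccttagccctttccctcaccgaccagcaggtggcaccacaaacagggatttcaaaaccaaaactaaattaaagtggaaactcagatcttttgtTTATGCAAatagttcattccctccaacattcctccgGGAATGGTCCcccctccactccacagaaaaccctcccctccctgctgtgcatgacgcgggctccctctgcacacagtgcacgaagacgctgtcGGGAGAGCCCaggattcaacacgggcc
CD55: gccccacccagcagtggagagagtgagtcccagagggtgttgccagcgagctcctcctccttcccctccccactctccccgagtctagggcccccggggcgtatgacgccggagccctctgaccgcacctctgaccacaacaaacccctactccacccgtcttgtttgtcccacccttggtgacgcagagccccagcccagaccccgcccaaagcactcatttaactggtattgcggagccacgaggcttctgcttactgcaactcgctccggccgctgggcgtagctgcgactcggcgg

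The *CFB* window held 3 NF-kB matches that start at -185, -112 and -111 from the annotated start, the last 2 overlapping, with an IRF match at -139 and a GAS match at -92. The *C1R* window held NF-kB matches at -70 and 23 and a C/EBP match at -106. No letters of the *CD55* window matched any of the 4 motifs. *CD59* has 4 promoter entries and *CD46* has 2, and a single window of each was searched. In these windows *CD59* had an NF-kB match at -236 and a GAS match at -128, and *CD46* an NF-kB match at -101. Among the promoters of 7008 tested genes, 38.1% held an NF-kB match, 6.09% a GAS, 6.46% an IRF and 6.72% a C/EBP match, so an NF-kB match alone is common. A match is a description of the letters and not a bound site, and its part in the values was not tested.

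*CD46* (ENSG00000117335, plus strand of chromosome 1, bases 207925382 to 207968858) is the member nearest to the edited promoter, with its end 73637 bases from the annotated start of the p2 transcript at 208042495. It was at 250 and 299 in the edited pair against 376 and 356 in the wild-type pair. Both edited values were below both wild-type values. The log2 fold change of -0.42 did not pass the threshold (95% confidence interval -0.94 to 0.10, adjusted p = 0.221 from limma). It reached -0.74 with cyclic loess normalization (adjusted p = 0.0784). In the annotation 34864 bases of the *CD46* span are also covered by the host gene of miR-29 on the opposite strand. These are spans of whole genes with introns, and overlap of exons was not looked at. The library kit named in the labels is not stated to keep the strand, so reads from any overlapping exons may not be told apart.

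*CD55* (ENSG00000196352, chromosome 1, 207494864 to 207560149 on the plus strand), which speeds the decay of the C3-cleaving enzymes, was at 67.3 and 233 in the edited pair against 69.5 and 32.2 in the wild-type pair. Edited replicate 2 stood above the other libraries, while edited replicate 1 was at the level of wild-type replicate 1, so the groups overlapped. The wild-type replicates also differed, by a factor of 2.16. Its log2 fold change of 1.39 had a 95% confidence interval of -0.22 to 2.99 (limma, adjusted p = 0.200). It was 2.27 without edited replicate 1 (adjusted p = 0.0282) and 0.50 without edited replicate 2 (adjusted p = 0.455), and 0.84 without wild-type replicate 2 (adjusted p = 0.578).

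*CD59* (ENSG00000085063, chromosome 11, 33724556 to 33758025 on the minus strand), the inhibitor of the membrane pore, was at 601 and 865 in the edited pair against 581 and 508 in the wild-type pair. Both edited values were above both wild-type values. Its log2 fold change was 0.41 (95% confidence interval -0.23 to 1.05, adjusted p = 0.316 from limma), and it was 0.09 with quantile normalization. *CD59* stayed in the top 2.21% of genes or higher in every library. It had the highest value of the 8 genes in edited replicate 1, and *C3* had it in the other libraries. The neighbouring levels of *CD46* and *CD59* in wild-type cells, 366 ± 14.6 and 545 ± 51.8 (SD, n = 2), did not overlap, and neither did those of *CD59* and *C3*.

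The deleted promoter region belongs to the host gene of miR-29b-2 and miR-29c, so matches to their seed were looked for in the members. The mature sequences from RefSeq are given with the seed, bases 2 to 8, in capitals. They lie on the minus strand of chromosome 1 of GRCh38.p14, miR-29c-3p at chr1:207801865-207801886 and miR-29b-3p at chr1:207802450-207802472, and share one seed.
hsa-miR-29c-3p: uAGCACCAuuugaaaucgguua
hsa-miR-29b-3p: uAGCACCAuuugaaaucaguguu

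The reverse complement of the seed, TGGTGCT, was looked for in the 3 prime untranslated region of the canonical transcript (GENCODE on GRCh37), and among the 7 members with such a region it was found in *CD59* alone, at 2 places. *CD46*, *CD55*, *C3*, *CFB*, *C1S* and *SERPING1* had no match, and *C1R* had no canonical transcript in this annotation. Of 8379 tested genes with such a region, 15.3% held a match, and the region of *CD59* is long, at 7119 bases. The places are shown with the match in capitals, the first at bases 1462 to 1468 and the second at bases 4195 to 4201 of the region.
CD59 first match: ttagcattacctTGGTGCTctgtgttc
CD59 second match: tatgatcagtgcTGGTGCTgactctca

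*CD59*, with both matches, was the membrane regulator whose value was 601 and 865 in the edited pair against 581 and 508 in the wild-type pair, a difference that did not pass the threshold (adjusted p = 0.316 from limma).

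In wild-type cells the order of the mean levels was *C3* (2812), *CD59* (545), *CD46* (366), *CFB* (200), *C1R* (92.6), *C1S* (78.0), *CD55* (50.8) and *SERPING1* (31.4). *C1R* and *C1S* overlapped between replicates there, and so did *CD55* with *SERPING1*. In edited replicate 1 the order was *CD59*, *C3*, *CD46*, *CD55*, *C1S*, *C1R*, *SERPING1* and *CFB*, so that *CFB* went from the fourth to the lowest place. *CFB* there was at 0.0133 of the level of *C3*, against 0.0592 in edited replicate 2 and 0.0741 and 0.0676 in the wild-type libraries.

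The membrane and secreted genes were also set against each other. Per library, the mean log2(value + 1) of the 3 membrane regulators exceeded that of the 5 secreted components by 3.72 and 2.02 in edited replicates 1 and 2, and by 0.42 and 0.27 in wild-type replicates 1 and 2. This is a description with no test, since the genes were chosen with results of these data known. The summed value of the membrane regulators was 918 and 1397 in the edited pair against 1027 and 896 in the wild-type pair. That of the secreted components was 337 and 1740 in the edited pair against 3527 and 2901 in the wild-type pair, most of it *C3*, so by summed value the wild-type libraries had the wider gap and the secreted sum was the larger in all libraries but edited replicate 1. The ratio of *CD55* to *CD46* was 0.269 and 0.780 in the edited pair against 0.185 and 0.0904 in the wild-type pair, and the ratio of *CD59* to *CD46* was 2.41 and 2.90 against 1.54 and 1.43.

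A list of 58 complement genes held 23 that were in the table, of which 13 reached a mean of at least 10. None of the 8 listed genes of the lectin pathway were among the 23, nor were the *C1QA*, *C1QB*, *C1QC* and *C2* genes of the classical pathway or *C6* to *C9* of the pore. Of the 13 tested genes, 2 were lower in edited cells, *SERPING1* and *ITGAM*, and 0 were higher (limma). Both reached the mean of 10 only through the wild-type group, where they are high. Nothing is therefore read from this count of 2 of 13 beside the 7.09% of all tested genes. An unadjusted p under 0.05 (limma) was found for 5 of the 13, beside 3095 of all 9590 tested genes. *ITGAM*, one chain of the complement receptor for cleaved C3b, was at 0.309 and 1.66 in the edited pair against 16.3 and 41.7 in the wild-type pair (log2 fold change -3.87, limma adjusted p = 0.0264). The other chain, *ITGB2*, was at 0.812 to 1.63 in all libraries. The call for *ITGAM* was lost without wild-type replicate 1 (adjusted p = 0.0694) or wild-type replicate 2 (adjusted p = 0.181).

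Genes under a mean of 10 were tested among all 16811 genes, of which 4.73% passed and 3.4% were lower in edited cells. *C5*, the precursor of the first pore protein, was lower in edited cells by this test, at 2.63 and 3.26 in the edited pair against 9.80 and 13.3 in the wild-type pair (log2 fold change -1.66, limma adjusted p = 0.0375). Both edited libraries lay well below both wild-type libraries. *C1QBP*, a mitochondrial protein that can also bind C1q, was at 640 and 400 in the edited pair against 229 and 145 in the wild-type pair without passing the threshold (log2 fold change 1.47, limma adjusted p = 0.0597). *CLU*, which encodes a fluid-phase inhibitor of the pore, was at 174 and 90.8 in the edited pair against 87.6 and 111 in the wild-type pair, so the groups overlapped. *C4A* and *C4B* are near-identical copies whose reads may have been shared out wrongly, and their values, from 1.89 to 15.0, are uncertain.

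**Figure D3:**
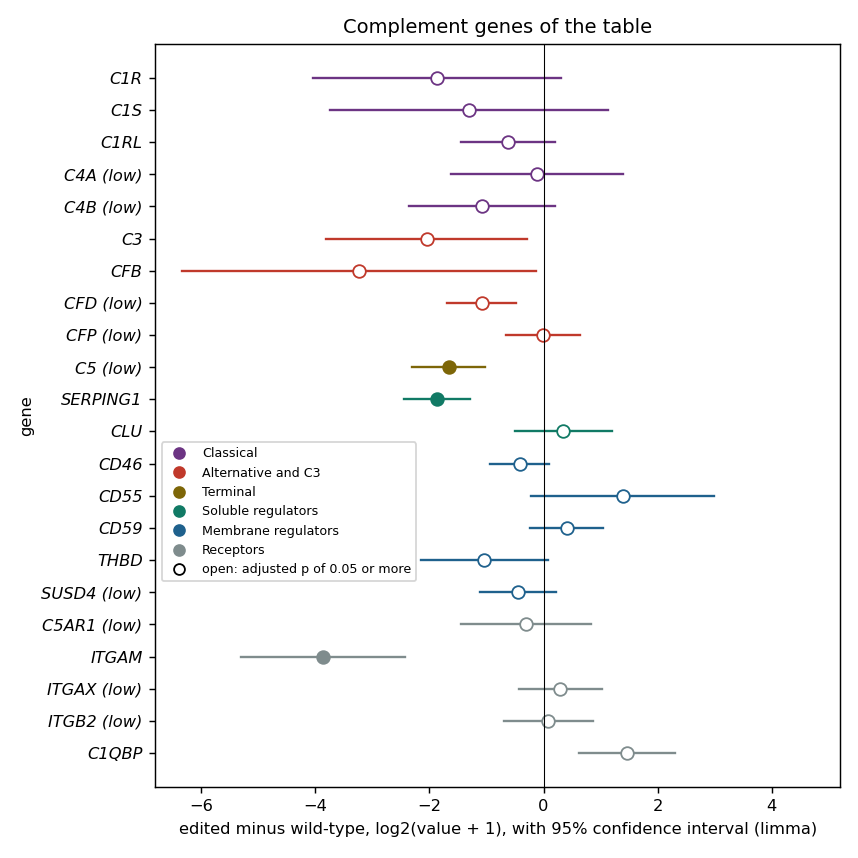
Log2 fold change of 22 complement genes of the table, edited minus wild-type, on the log2(value + 1) scale, with 95% confidence intervals from limma (2 libraries per group). Colours mark the part of the system, filled points have an adjusted p under 0.05, and genes marked low have a mean under 10 and were tested among all genes. The filled points are *C5*, *SERPING1* and *ITGAM*, all to the left of 0, and *CFB* has the widest interval.

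*CD55* and *CD59* are held on the membrane by a glycosylphosphatidylinositol (GPI) anchor, which is assembled by the PIG proteins. Of 28 listed genes of anchor synthesis 24 were tested. None passed the threshold in limma, with 7 of the 24 at an unadjusted p under 0.05, beside 3095 of all 9590 tested genes, and the median log2 fold change was -0.16. The highest means were those of *GPAA1* and *PIGT*, subunits of the enzyme that attaches the anchor, and *DPM1*, which makes its mannose donor. *GPAA1* was at 461 and 413 in the edited pair against 324 and 312 in the wild-type pair. *PIGT* was at 159 and 195 against 115 and 93.7 (log2 fold change 0.76, limma adjusted p = 0.0865). *DPM1* was at 149 and 110 against 98.9 and 87.8. The edited replicates differed by a median size of 0.11 over the list, less than over all genes.

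Transcription of *C3*, *CFB*, *C1R*, *C1S* and *SERPING1* is known to be raised by interferons, IL-1, IL-6 and TNF or some of these, through STAT, IRF, NF-kB and C/EBP factors. Of 27 listed genes of these routes 22 were tested, and 1 was called, *IRF1*, which was lower in edited cells, beside 7.09% of all tested genes called and 4.2% called lower. *IRF1*, an interferon-induced transcription factor, was at 16.4 and 25.5 in the edited pair against 94.2 and 109 in the wild-type pair (log2 fold change -2.25, limma adjusted p = 0.0140). The call was lost without wild-type replicate 1 (adjusted p = 0.0676) or wild-type replicate 2 (adjusted p = 0.114). *NFKBIA*, the NF-kB inhibitor that NF-kB itself induces, was at 85.4 and 217 in the edited pair against 490 and 557 in the wild-type pair (log2 fold change -1.93, limma adjusted p = 0.0595). *CEBPD* was at 61.1 and 129 against 259 and 131, and *TNFRSF1A*, a TNF receptor, at 165 and 190 against 128 and 132.

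In this list 21 of 22 genes were higher in edited replicate 2 than in edited replicate 1, as were 46.6% of all tested genes. Those higher by more than 2 on the log2 scale were *IL6*, *RELB*, *IL1B* and *IL1A*, named here after their values were seen. *IL6* was at 0.973 and 52.5 in the edited pair against 5.68 and 1.11 in the wild-type pair. It reached the mean of 10 needed for testing only through edited replicate 2, where it is high, so nothing is read from its place here. *RELB*, an NF-kB subunit, was at 10.1 and 62.3 in the edited pair against 59.2 and 45.4 in the wild-type pair. *IL1B* was at 16.0 and 111 against 236 and 210, and *IL1A* at 24.7 and 106 against 147 and 100. Edited replicate 1 was the lowest library for each of these 4 genes. It was below the wild-type mean by more than 1 on the log2 scale for 10 of the 22 genes and edited replicate 2 for 3 of them, beside 8.88% and 5.41% of all tested genes. Without edited replicate 2, limma called 11 genes of the list lower, among 749 lower of 1431 called in all. Without edited replicate 1 the log2 fold change was -1.95 for *IRF1* and 3.83 for *IL6*. The value for *IL6* rests on edited replicate 2 alone, the library through which it was tested, and nothing is read from it.

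**Figure D4:**
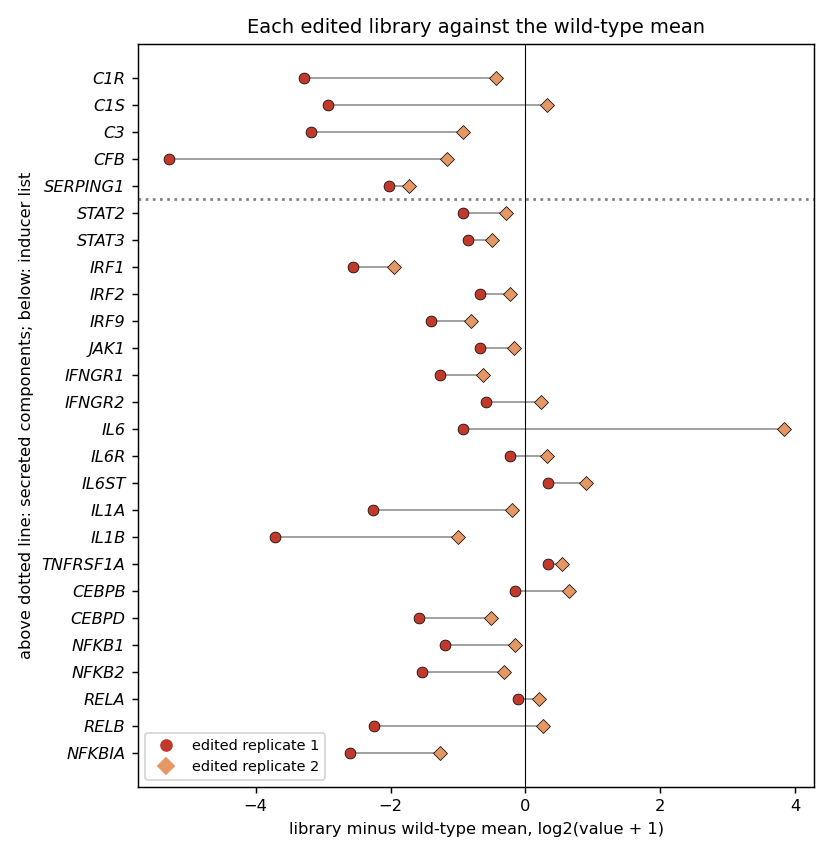
Each edited library less the wild-type mean on the log2(value + 1) scale, for the 5 secreted components (above the dotted line) and 21 tested genes of the inducer list (below it). Circles are edited replicate 1 and diamonds edited replicate 2. Circles lie to the left of diamonds for all genes shown.

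Genes were ranked by how close their centred log2 profile over the 4 libraries lay to that of each member, as a Euclidean distance. The nearest to *C3* were *NFKBIZ* (distance 0.28) and *EFNA1* (0.36), and to *C1R* *ICAM1* (0.28) and *EFNA1* (0.29). The nearest to *C1S* were *ICAM1* (0.48) and *CXCL2* (0.57), and to *CFB* *CCL20* (0.83) and *SAA1* (0.84). *SAA1* was at 41.0 and 1028 in the edited pair against 4275 and 2246 in the wild-type pair, and *ICAM1* was at 2.78 and 26.7 against 35.8 and 25.0. The members *C3* and *C1R* lay 0.46 apart and *C1R* and *C1S* 0.66. For the remaining members the nearest were *SCRN1* (0.11) and *PLEKHG3* (0.19) for *SERPING1*, *FAM20C* (0.19) and *HMGA2* (0.35) for *CD55*, *MYH9* (0.03) and *PLP2* (0.04) for *CD59*, and *MSRB2* (0.04) and *PAPD7* (0.05) for *CD46*. With 4 libraries such distances only describe.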

How the data were processed

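Poly(A)-selected RNA from 2 edited and 2 wild-type MCF12A samples was read single-end over 75 bases. The authors deposited 1 table with a normalized expression signal for 16811 genes by symbol in each of the 4 libraries, not whole numbers. The submitters' processing notes name Salmon, HISAT2 and hg38, with no versions or roles. The normalization is not given in the sources used here. Scaling for transcript length was inferred from the values: among 2268 low genes (values above 0 and under 3), 477 (21.0%) were small whole multiples of 1 step in all 4 libraries within 0.2%, and of 45 such genes with 1 transcript, 29 had a step inversely related to length. Most genes did not give whole reads, and so no count test was used. Estimated reads (value times canonical transcript length, divided by the step) are approximate and cover counting error only.

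Groups and replicate numbers came from the sample titles. limma 3.58.1 in R 4.3.3 (lmFit, eBayes with trend) compared edited with wild-type libraries on log2(value + 1) over the 9590 genes with a mean of at least 10. Genes under that mean were tested among all 16811 genes. The test was tried on simulated data first. Alternatives in pseudocount, filter, scaling, variance model, block and threshold were run, as were fits that each omitted 1 library. Gene positions, transcripts and untranslated regions came from GENCODE version 44 on GRCh37, matched by symbol, and promoters and miRNAs from RefSeq on GRCh38.p14. No coordinates were carried between builds. Python 3.11.15, numpy 2.4.6 and pandas 2.3.3 were used.

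The 8 members and the complement, GPI anchor and inducer lists were chosen with earlier results of these data known. Named were all members, genes of a list past the threshold, up to 3 further genes per list with the highest mean, and the 2 nearest profiles per member. Some genes of the lists are not reported here by name, and the counts include them.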

Additional observations from a re-analysis of the deposited data

How the results depend on the processing

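All 8 genes kept the direction of their log2 fold change under every alternative run, except *C1S*, which was 0.31 without edited replicate 1. In fits that each omitted 1 library, log2 fold changes ranged from -3.18 to -0.92 for *C3*, -5.29 to -1.17 for *CFB*, -3.29 to -0.44 for *C1R*, -2.92 to 0.31 for *C1S*, -2.06 to -1.69 for *SERPING1* and 0.50 to 2.27 for *CD55*, and each of the first 4 was past the threshold without edited replicate 2 only. Membrane regulators less secreted components, 2.52 higher in edited cells, ranged from 1.67 to 3.37. The complement genes called, 2 in the main test, ranged from 0 to 8, those of the inducer list, 1 in the main test, from 0 to 11, and all genes called, 680 in the main test, from 4 to 1431. With no filter 4 of 23 complement genes were called, beside 795 of all 16811 genes. With a mean of at least 50 there was 1 (*C1QBP*, higher), beside 419 of all genes, since *SERPING1* and *ITGAM* were then not tested. At an adjusted p under 0.001 the counts were 0 complement genes, 0 inducer genes and 1 of all genes (limma). At an unadjusted p under 0.05 (limma) they were 5 and 6, beside 3095 of all 9590 tested genes. The inducer count was 2 with a pseudocount of 5, a mean of at least 50, equal library totals, quantile normalization or a robust variance estimate. In these settings 725, 419, 734, 736 and 860 of all genes were called, in that order, so nothing is read from the change. Equal library totals moved the median of all genes from 0.09 to -0.03.

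Whether same-numbered samples were handled as pairs is not given in the sources used here. Deviations of same-numbered libraries had a correlation of -0.14 across 9590 genes, which with 2 libraries per group cannot settle it. With the replicate block 133 genes were called in all and 1 complement gene, and *SERPING1* stayed at -1.87 (adjusted p = 0.0643 from limma). With the numbers crossed, an alternative chosen after seeing the data, 5 complement and 5 inducer genes were called, among 1002 in all. With 2 libraries per group, differences of the size seen between the edited replicates could not be resolved for *C3*, *CFB*, *C1R*, *C1S* and *CD55*.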
